A study of Mus musculus with 2 samples.

Results

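The protein-coding genes for the proteins of the cytosolic ribosome were examined in mouse embryonic stem (ES) cells that lack Dgcr8. Members were the rows of both count files with a GENCODE mouse M21 biotype of protein_coding and a symbol made of Rpl or Rps followed by a digit or p. Ribosomal S6 kinases (Rps6k symbols), symbols containing -ps and Rpl10l were left out. The rule gave 84 of 43629 genes, 51 with large subunit names (Rpl) and 33 with small subunit names (Rps). Of these, 73 encode canonical ribosomal proteins and 3 (Rplp0, Rplp1 and Rplp2) the P stalk. A further 6 are paralogs (Rpl3l, Rpl22l1, Rpl36al, Rpl39l, Rps27l and Rps27rt), and 2 (Rpl7l1 and Rps19bp1) are named after ribosomal proteins without being counted among the canonical ones. The study had 1 group of 2 libraries, A and B, both labelled as a Dgcr8 knockout made with paired CRISPR/Cas9 cutting, of 129/Ola background and at passage 7. The labels do not explain the codes KO2 and d5 in the sample titles, nor state whether the libraries stem from separate cultures or from 1 clone. The spread between A and B may thus be purely technical. No wild-type library was analysed here, so nothing below is a change caused by the loss of Dgcr8.

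The ribosome translates messenger RNA with a small subunit that reads the codons and a large subunit that joins the amino acids. Each subunit is built from ribosomal RNA and a set of proteins needed largely in equal numbers, and dividing cells such as ES cells spend much of their transcription on them. Mammalian messenger RNAs for these proteins begin with a run of pyrimidines, the TOP motif, through which growth signals set their translation. Their abundance in the germ line has also seeded mammalian genomes with many processed pseudogenes, intronless copies of the spliced messenger RNA.

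The libraries held 27872396 counts in A and 30327146 in B. Dgcr8 itself had 1253 counts in A and 1942 in B, and counts per gene do not tell whether the reads came from the edited exons, so they do not check the label. All 8 ES cell markers reached 1 CPM (1 count in each 1000000 of a library) in A and in B, with a summed level of 9343 CPM in A and 6151 CPM in B. Dppa5a alone had 4252 CPM in A and 1767 CPM in B, and the other 7 markers summed to 5091 CPM in A and 4383 CPM in B. Markers of fibroblast feeder cells summed to 928 CPM in A and 875 CPM in B, nearly all from Fn1, with Postn at 0 in both. Primitive endoderm markers summed to 11.1 CPM in A and 22.3 CPM in B. Blood markers summed to 0.0718 CPM in A and 0.198 CPM in B.

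All 84 genes reached 1 CPM in both libraries, and 46 reached 100 CPM in both, 26 of them with large and 20 with small subunit names. Their joint share of a library's counts was 4.94% in A and 2.93% in B. Large subunit names took 2.80% in A and 1.70% in B, and small subunit names 2.14% in A and 1.23% in B. Levels between genes were compared as RPKM, counts per 1000 bases of the gene's longest principal transcript per 1000000 library counts. The median level of the large subunit names was 171 RPKM in A, with quartiles of 76.0 and 472, and 129 RPKM in B, with quartiles of 53.5 and 255. That of the small subunit names was 523 RPKM in A, with quartiles of 85.1 and 1205, and 320 RPKM in B, with quartiles of 71.8 and 609. The mean RPKM of the highest gene was 1853-fold that of the lowest. The SD of log2 RPKM over the genes was 2.30 in A and 2.19 in B. The order of the genes was close to the same in the libraries, with a Spearman rho of 0.987 across 84 genes, which share their lengths and sequences in both.

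**Figure D1:**
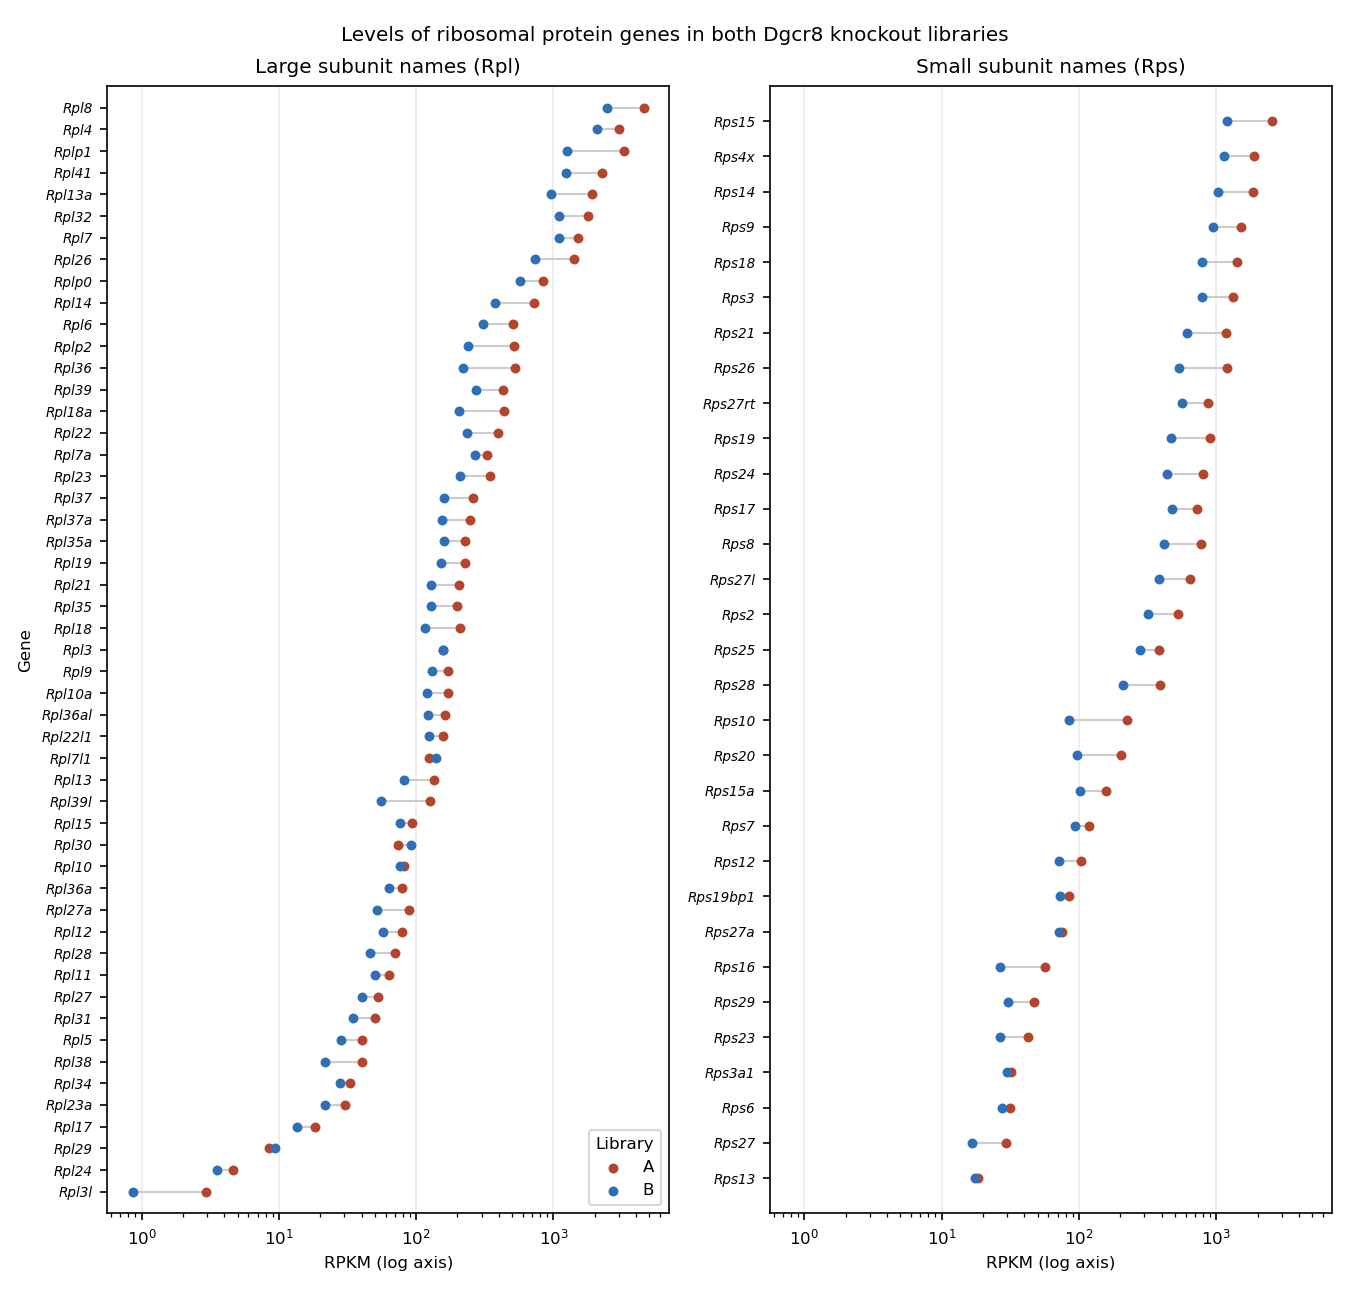
Level in RPKM (log axis) of 82 of the ribosomal protein genes in libraries A and B, large subunit names on the left and small subunit names on the right, each ordered by its mean. The genes run from Rpl3l at 2.92 RPKM in A and 0.863 RPKM in B to Rpl8 at 4545 RPKM in A and 2469 RPKM in B, and the A point lies to the right of the B point in most rows.

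Among large subunit genes Rpl8, whose protein lies beside the catalytic centre, was highest, at 4545 RPKM in A and 2469 RPKM in B (3507 ± 1468, SD, n = 2). Rpl4, whose protein lines the tunnel through which the new chain leaves, followed with 3006 RPKM in A and 2080 RPKM in B (2543 ± 654). Rplp1, an acidic stalk protein that recruits elongation factors, had 3267 RPKM in A and 1254 RPKM in B (2261 ± 1424). These SDs include the shift between the libraries that most of the genes shared, so they do not judge the order, which was not tested. Rpl8 exceeded Rpl4 in both libraries, whereas Rplp1 exceeded Rpl4 in A but not in B. Rpl41, which encodes the shortest ribosomal protein, had 2277 RPKM in A and 1230 RPKM in B. Rpl13a, known in human cells also as a subunit of a translation-silencing complex, had 1914 RPKM in A and 962 RPKM in B.

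Among the small subunit genes of high level, Rps15, a protein of the head, had 2538 RPKM in A and 1191 RPKM in B (1865 ± 953, SD, n = 2). Rps4x, the X-linked form of the protein, had 1886 RPKM in A and 1148 RPKM in B (1517 ± 522). Rps14, a platform protein whose single-copy loss causes anaemia in humans, had 1856 RPKM in A and 1031 RPKM in B (1443 ± 583). The mean levels of these 3 genes differed by less than their spread between the libraries, which includes the shift that most genes shared. Within A and within B the order was Rps15, Rps4x and Rps14, and it was not tested.

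The start regions of some of these genes are shown because TOP messenger RNAs are defined by the bases at their start. Each line runs from 40 bases before to 20 bases after the transcript start in the RefSeq promoter table (GRCm38.p6), with runs of 5 or more C or T in capitals. The first 3 lines are highly expressed large subunit genes, the next 3 small subunit genes, and the last 2 the genes that only share the name.
Rpl4: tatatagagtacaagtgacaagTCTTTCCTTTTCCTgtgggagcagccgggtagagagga
Rpl41: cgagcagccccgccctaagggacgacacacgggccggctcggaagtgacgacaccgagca
Rpl13a: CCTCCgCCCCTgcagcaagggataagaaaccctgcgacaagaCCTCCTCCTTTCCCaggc
Rps15: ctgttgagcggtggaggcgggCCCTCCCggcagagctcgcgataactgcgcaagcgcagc
Rps4x: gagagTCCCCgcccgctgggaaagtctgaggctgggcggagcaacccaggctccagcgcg
Rps9: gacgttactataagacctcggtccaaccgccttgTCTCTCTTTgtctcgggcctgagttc
Rpl7l1: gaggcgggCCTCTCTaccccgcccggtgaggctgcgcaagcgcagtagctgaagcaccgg
Rps19bp1: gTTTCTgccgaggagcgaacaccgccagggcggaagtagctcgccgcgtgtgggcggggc
The windows of Rpl4, Rpl13a and Rps9 lie at chr9:64173347-64173406 on the plus strand, chr7:45128726-45128785 on the minus strand and chr7:3704001-3704060 on the plus strand. Anywhere in the window, the longest run was 14 bases in Rpl4 and in Rpl13a, 9 in Rps9, 7 in Rps15 and 5 in Rps4x. Rpl41 had no run of 5 or more. The run of Rps9 spans the annotated start and that of Rpl13a lies just after it, whereas those of Rpl4, Rps15 and Rps4x end before it. The genes that only share the name had runs of 7 bases in Rpl7l1 and 5 bases in Rps19bp1, both ending before the start. Run lengths over the whole window thus do not tell whether a run sits at the start. The annotated starts may lie some bases from the starts used in these cells.

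The table held 76 such windows for 64 of the 84 genes, and 32851 windows over all genes. Between 10 bases before and 30 bases after the start, the longest run of C or T had a median of 7 bases in the ribosomal protein windows and 5 bases in all windows. A run of 8 bases or more was found in 36.8% of the ribosomal protein windows and in 14.4% of all windows. Over the whole window, from 250 bases before to 50 bases after the start and on either strand, CCGGAAG, a core bound by ETS factors, occurred in 34.2% of ribosomal protein windows and 8.86% of all windows. CTTTCC occurred in 50% of ribosomal protein windows and 26.6% of all windows. AAGATGGC, the core of the YY1 motif, occurred in 10.5% of ribosomal protein windows and 2.75% of all windows. GGGCGG, the GC box, occurred in 59.2% of ribosomal protein windows and 35.7% of all windows. A match is a run of letters and was not tested for binding.

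The lowest genes included proteins that every ribosome carries. Rpl24, a protein of the bridge between the subunits, had 88 counts in A and 73 in B, which is 3.16 CPM in A (95% Poisson interval 2.53 to 3.89) and 2.41 CPM in B (1.89 to 3.03). Its level was 4.66 RPKM in A and 3.56 RPKM in B, and only Rpl3l, a muscle paralog, was lower by mean RPKM. Rpl29 had 8.42 RPKM in A and 9.45 RPKM in B. Rpl17, which sits at the exit tunnel, had 18.5 RPKM in A and 13.6 RPKM in B. Rpl23a, which docks the signal recognition particle, had 30.4 RPKM in A and 21.9 RPKM in B. On the small subunit, Rps13 had 18.5 RPKM in A and 17.5 RPKM in B, and Rps27 had 29.6 RPKM in A and 16.5 RPKM in B. Rps6, the substrate of the S6 kinases, had 31.6 RPKM in A and 27.5 RPKM in B. Rps3a1 had 31.9 RPKM in A and 29.8 RPKM in B. Rps23, a protein of the decoding centre, had 42.8 RPKM in A and 26.4 RPKM in B. The low and the high small subunit genes were picked by their mean level in these same libraries, so their separation follows from that choice.

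Counts at copies stood beside the low levels of these genes, except for Rpl3l and Rps27, for which no copy outside the members was found. Genes whose annotated transcript matched a coding sequence at 90% identity or more over 50% or more of its length were taken as matching genes. The annotation held 1033 of them, of which 978 are processed pseudogenes and 20 are protein-coding, and 716 had a row in the files. They held 1033356 counts in A and 657650 in B, against 1377126 counts in A and 887445 in B at the ribosomal protein genes themselves. This is 42.9% of the joint counts in A and 42.6% in B, or 47.9% in A and 47.2% in B for large subunit names and 34.7% in A and 34.6% in B for small subunit names. For 40 genes, 29 large and 11 small, the matching genes outweighed the gene in counts in A as well as in B. How reads that fit several places were treated is not given in the sources used here, so whether the counts at copies are transcripts of the copies was not tested.

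Rpl24 had the highest share of counts at copies, with 23344 in A and 18195 in B, or 99.6% of the joint counts in each. Most lay at Gm9385, a single-exon processed pseudogene at chr9:116040593-116041064 (GRCm38, minus strand), with 16310 counts in A and 12989 in B. At the Rpl24 locus itself, 484 of 1030 exon bases overlap Gm28037 on the same strand. Whether this overlap lowered the count at Rpl24 was not tested. Rps3a1 had 42404 counts at copies in A and 27009 in B, of which Rps3a3, at chr13:108670603-108671397 on the plus strand, held 28913 in A and 17488 in B. Rps6 had 28666 counts at copies in A and 19224 in B, nearly all at Rps6-ps4, at chr2:75191073-75191822 on the minus strand. The 90-base stretches below show how little separates a read of these genes from a read of the copy. They come from GENCODE M21 transcripts, positions are counted from 1 at the first base of the coding sequence, and capitals mark the bases that differ.
Rpl24: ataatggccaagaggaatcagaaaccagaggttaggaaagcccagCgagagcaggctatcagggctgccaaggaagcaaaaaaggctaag
Gm9385: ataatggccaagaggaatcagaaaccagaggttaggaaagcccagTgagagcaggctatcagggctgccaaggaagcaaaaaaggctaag
Rps3a1: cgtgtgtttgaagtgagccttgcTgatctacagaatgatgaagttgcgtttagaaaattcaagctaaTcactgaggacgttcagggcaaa
Rps3a3: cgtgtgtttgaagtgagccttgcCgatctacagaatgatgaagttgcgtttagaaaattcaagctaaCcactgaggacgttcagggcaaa
Rps6: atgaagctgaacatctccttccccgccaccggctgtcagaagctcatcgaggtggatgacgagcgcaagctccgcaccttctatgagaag
Rps6-ps4: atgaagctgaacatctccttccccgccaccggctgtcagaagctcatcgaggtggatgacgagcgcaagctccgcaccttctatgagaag
Over the whole coding sequence Gm9385 differed from Rpl24 at 1 of 471 bases, C313T, which turns codon 105 into a stop codon in the copy. Rps3a3 differed from Rps3a1 at 9 of 792 bases, among them T216C and T260C in the stretch shown. Rps6-ps4 did not differ from Rps6 at any of 747 bases.

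A share of counts at copies above 90% in both libraries was found for 15 genes. Among them, the 5 with the next highest shares after these 3 were Rps29, with 97.0% in A and 96.3% in B, Rpl38, with 96.1% in A and 96.1% in B, Rps13, with 96.1% in A and 93.8% in B, Rps23, with 95.1% in A and 94.6% in B, and Rps16, with 94.2% in A and 94.95% in B. Rpl5 and Rpl11, which with the 5S RNA also bind Mdm2 and so stabilise p53, belonged to this set. Rpl5 had 2314 counts in A and 1755 in B at the gene, and its copies had 38324 in A and 25483 in B. Rpl11 had 1474 counts in A and 1273 in B, and its copies had 20837 in A and 13975 in B. The copies of Rplp2 were almost wholly Wdr89, a protein-coding gene whose annotated transcript holds a stretch at 99.4% identity to Rplp2, with 18657 counts in A and 7722 in B. At the other end, no matching gene with a count was found for Rpl8, Rps3 or Rps9, which were high at the gene itself. The same held for genes of lower level, namely Rpl39l, Rps19bp1, Rps27 and Rpl3l. Of these, Rps27 had 29.6 RPKM in A and 16.5 RPKM in B, and Rpl3l had 2.92 RPKM in A and 0.863 RPKM in B.

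With the counts of matching genes added, Rpl24 had 1242 RPKM in A and 890 RPKM in B. Rps3a1 had 1589 RPKM in A and 941 RPKM in B on this joint scale, and Rps6 had 1203 RPKM in A and 749 RPKM in B. Each of these joint levels lay above the median joint level of all 84 genes, 939 RPKM in A and 534 RPKM in B. The joint median was 713 RPKM in A and 440 RPKM in B for large subunit names, and 1138 RPKM in A and 699 RPKM in B for small subunit names. The spread between genes was narrower on the joint scale. Over the canonical and P stalk genes of the large subunit the SD of log2 RPKM was 1.38 in A and 1.28 in B jointly, against 2.26 in A and 2.08 in B for the gene alone. Over the canonical small subunit genes it was 1.391 in A and 1.398 in B jointly, against 2.29 in A and 2.14 in B for the gene alone.

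**Figure D2:**
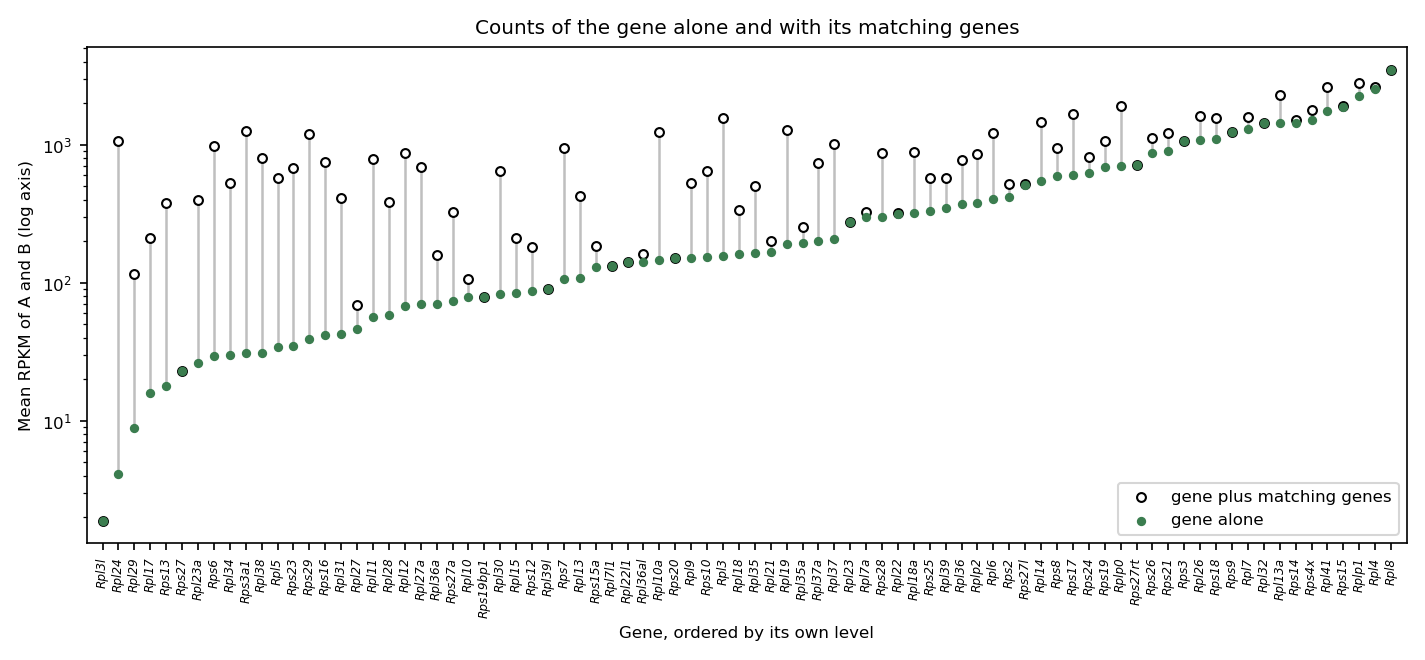
Mean RPKM of A and B (log axis) for 82 of the genes alone (green) and with the counts of its matching genes added (open circles), ordered by the gene alone. The circles of Rpl24, Rps6, Rps3a1 and other low genes lie far above their green points, with joint levels of 1242 RPKM in A and 890 RPKM in B for Rpl24, while both points coincide for Rpl8 and Rps3.

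A related measure was the share of 50-base stretches of a transcript that occur in no annotated transcript of another gene. Its median was 49.7%, and 12 genes had fewer than 100 such stretches. The 21 genes with under 25% had a median of 135 RPKM in A and 92.1 RPKM in B, and the 15 genes with over 75% had 392 RPKM in A and 233 RPKM in B. Across the 84 genes the Spearman rho of RPKM with this share was 0.275 in A and 0.242 in B, and with matching genes added it was 0.00 in A and -0.03 in B. Genes share sequence with one another and with their copies, so these are descriptions. RPKM also rests on the length used: Rps15a had 156 RPKM in A and 102 RPKM in B with its 5179-base transcript, and 1265 RPKM in A and 828 RPKM in B with its shortest principal transcript of 640 bases.

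The paralogs were read out at differing levels. Rps27l, which p53 induces, had 641 RPKM in A and 383 RPKM in B, and Rps27 had 29.6 RPKM in A and 16.5 RPKM in B. Rps27rt, a single-exon gene on chromosome 9 whose coding sequence does not differ from that of Rps27 at any of 252 bases, had 868 RPKM in A and 560 RPKM in B. The counts of Rps27 and Rps27rt are therefore uncertain as to which gene the reads came from, whereas Rps27l differs from Rps27 at 60 bases. Rpl39l, a paralog known for its expression in testis, had 125 RPKM in A and 55.3 RPKM in B, against 427 RPKM in A and 271 RPKM in B for Rpl39. Both coding sequences are shown to let the pair be compared, with their 23 differences of 153 bases in capitals.
Rpl39: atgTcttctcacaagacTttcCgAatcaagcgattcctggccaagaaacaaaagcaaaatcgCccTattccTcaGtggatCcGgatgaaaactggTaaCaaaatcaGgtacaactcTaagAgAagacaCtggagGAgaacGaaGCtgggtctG
Rpl39l: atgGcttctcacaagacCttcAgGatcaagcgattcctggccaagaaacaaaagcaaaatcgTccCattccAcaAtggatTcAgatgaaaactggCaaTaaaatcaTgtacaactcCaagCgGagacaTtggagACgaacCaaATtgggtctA
Rpl22l1 had 158 RPKM in A and 125 RPKM in B, against 392 RPKM in A and 233 RPKM in B for Rpl22. Rpl36al had 161 RPKM in A and 122 RPKM in B, against 78.6 RPKM in A and 62.9 RPKM in B for Rpl36a. Rpl3l, which replaces Rpl3 in muscle, had 2.92 RPKM in A and 0.863 RPKM in B, against 157 RPKM in A and 158 RPKM in B for Rpl3. All 3 paralogs of these pairs were thus present, Rpl3l at the lowest mean level of all 84 genes, and Rpl36al was the one that exceeded its partner in both libraries. With the copies added, Rpl36a and Rpl3 would stand higher, since they had 59.9% and 91.4% of their joint counts at matching genes in A and 49.0% and 87.8% in B. Jointly, Rpl36a had 196 RPKM in A and 123 RPKM in B, against 182 RPKM in A and 142 RPKM in B for Rpl36al. On that scale Rpl36al exceeded its partner in B only.

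The libraries differed in the level of these genes. By the exact binomial test (two-sided) of each gene's counts, with library sizes scaled by TMM, 73 of the 84 genes were higher in A and 3 were higher in B at an adjusted p under 0.05. Of all 14583 genes tested, 38.4% were higher in A and 38.4% higher in B, so that 76.8% were called in all. The test covers counting error in these libraries only and says nothing of a condition. At least 1.5-fold higher levels in A were found for 41 genes, 21 large and 20 small, against 19.4% of all genes tested, and no ribosomal protein gene was 1.5-fold higher in B. A 1.5-fold difference in either direction was found for 37.9% of all genes tested. At least 2-fold higher levels in A were found for 7 genes, against 7.37% of all genes tested. The median log2 ratio of A over B, computed from log2(CPM + 0.5) after TMM scaling, was 0.57 over the 84 genes and 0.01 over all genes tested. It was 0.48 for large and 0.65 for small subunit names, with quartiles of 0.33 and 0.77 over both. The SD of the ratio was 0.35 over these genes, 0.55 over all genes that reached 10 CPM in each library and 0.70 over all genes tested.

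GC content moved with the ratio: across 14509 tested genes the Spearman rho of log2 ratio with transcript GC content was 0.52, and across the 84 genes it was 0.29. With the ratio corrected for GC content and length by loess over all genes tested, the median of the ribosomal protein genes was 0.29 and that of all genes 0.01. The corrected median was 0.34 for large and 0.29 for small subunit names, so the uncorrected order of the subunits was reversed. On that scale 68 of the 84 genes, against 78 without the correction, had a positive ratio. The median of all genes was 0.01 with and without the correction, so about as many of them lay above 0 as below it. At least 1.5-fold higher in A on the corrected scale were 17 of the 84 genes, against 13.8% of all genes.

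**Figure D3:**
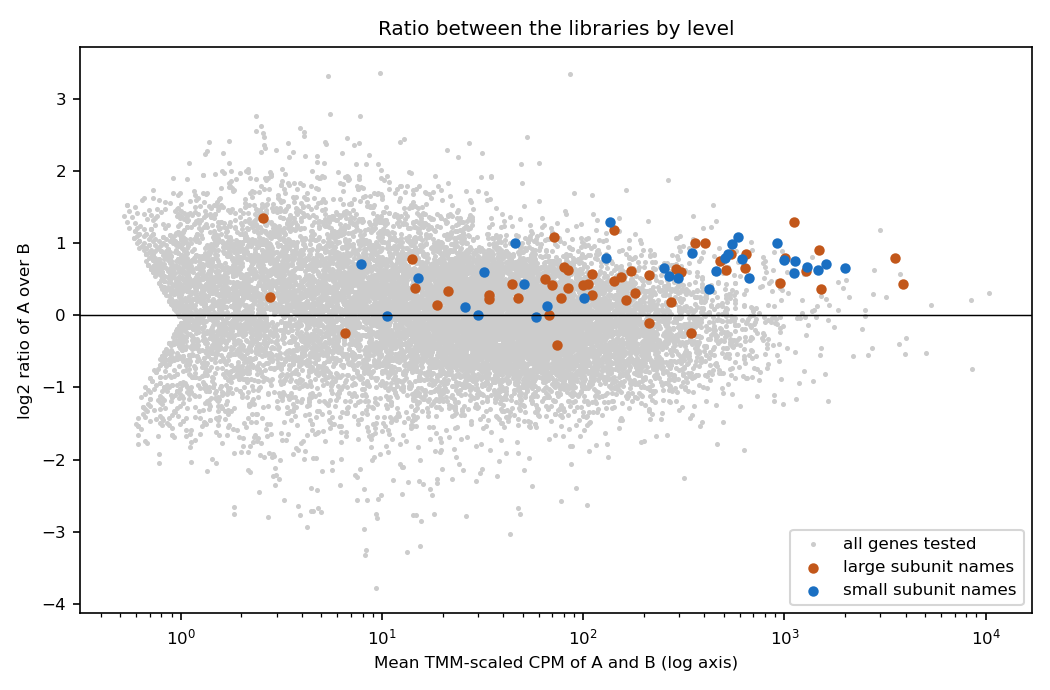
Log2 ratio of A over B against the mean TMM-scaled CPM (log axis) for all 14583 genes tested (grey), large subunit names (orange) and small subunit names (blue). Most ribosomal protein genes lie above 0, with a median of 0.57, and the few below 0 lie under a mean of 1000 CPM.

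Rps10 had 224 RPKM in A and 85.2 RPKM in B, a log2 ratio of 1.30. Rplp1, described above, had a log2 ratio of 1.29. The other P stalk genes, Rplp2 and Rplp0, had log2 ratios of 1.00 and 0.45. Rpl36 had 529 RPKM in A and 219 RPKM in B, a log2 ratio of 1.17 (exact binomial test, adjusted p = 2.1e-275). Rps26, which contacts the messenger RNA at its exit channel, had 1205 RPKM in A and 533 RPKM in B, a log2 ratio of 1.08. Rpl39l had a log2 ratio of 1.08 (exact binomial test, adjusted p = 5.7e-121). Without correction, the genes with the largest ratios thus came from both subunits and included a stalk protein and a paralog. Rpl3l, with a mean of 2.60 CPM and so below the limit for this ranking, had 1.35. Corrected for GC content and length, the ratios were 0.59 for Rps10, 0.67 for Rplp1, 0.40 for Rpl36, 0.90 for Rps26 and 1.14 for Rpl39l. Rps20 then had the largest, 1.49, so the order depends on the correction. The correction in turn rests on the transcript chosen, which for Rps20 has 3706 bases with a GC content of 41.3%, 357 of them coding.

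The genes higher in B were Rpl30, Rpl7l1 and Rpl3. Rpl30 had 73.5 RPKM in A and 92.1 RPKM in B, a log2 ratio of -0.42 (exact binomial test, adjusted p = 1.4e-20). Rpl7l1, which only shares the name, had 125 RPKM in A and 139 RPKM in B, a log2 ratio of -0.24 (exact binomial test, adjusted p = 3.1e-32). Rpl3, whose protein lies near the catalytic centre, had 157 RPKM in A and 158 RPKM in B, a log2 ratio of -0.10 (exact binomial test, adjusted p = 0.00011). The 8 genes not called were Rpl10, Rpl24, Rpl29, Rpl34, Rps13, Rps27a, Rps3a1 and Rps6, with log2 ratios between -0.24 for Rpl29 and 0.25 for Rpl24. Several of them were among the lowest genes, and Rpl24 with 88 counts in A and 73 in B gave an adjusted p of 0.24 by the exact binomial test.

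The copies differed between the libraries in the same direction as most genes. Of 72 genes with at least 100 counts at matching genes, the summed matching genes were higher in A than in B for 71. Their median log2 ratio was 0.69, against 0.52 for the 72 genes themselves and 0.01 over all genes tested. The Spearman rho between the gene and its copies was 0.53. The exception was Rpl7l1, with a log2 ratio of -0.61 at its copies. The copies of Rpl30 and Rpl3 had log2 ratios of 0.45 and 0.46, opposite in sign to the genes. Those of Rps6, Rps13 and Rps3a1 had log2 ratios of 0.60, 0.72 and 0.68, against 0.11, -0.01 and 0.00 at the genes. With the counts of gene and copies joined, 83 genes were higher in A and 1 was higher in B by the same test, and 57 were at least 1.5-fold higher in A. Over all 14318 genes tested in this way, 37.7% were higher in A, 39.1% higher in B and 18.8% at least 1.5-fold higher in A.

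**Figure D4:**
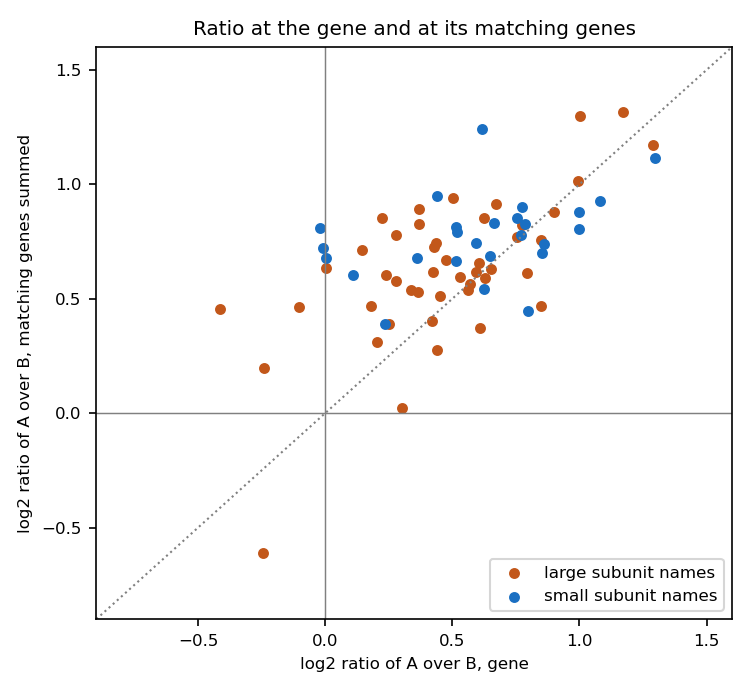
Log2 ratio of A over B at the summed matching genes against that at the gene itself, for the 72 genes with at least 100 counts at matching genes, with large subunit names in orange and small subunit names in blue. The dotted line marks equal ratios, and 71 of the 72 points lie above 0 on the vertical axis.

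Other genes of the translation machinery gave other ratios, to be read beside the 38.4% of all genes tested that were higher in A and 38.4% higher in B. Of 76 tested genes for mitochondrial ribosomal proteins, 47 were higher in A and 14 higher in B by the exact binomial test, with a median log2 ratio of 0.18. Of 12 tested elongation factor genes, 7 were higher in A and 1 in B, with a median of 0.29, and of 54 initiation factor genes, 20 were higher in A and 23 in B, with a median of -0.01. In the ribosome biogenesis list, which holds nucleolar assembly factors and RNA polymerase I genes, 4 of 32 genes were higher in A and 22 higher in B, with a median of -0.22. Its most abundant genes were all higher in B. Ncl, a nucleolar RNA-binding protein, had 3690 CPM in A and 4320 CPM in B, a log2 ratio of -0.32. Npm1, a nucleolar chaperone, had 2350 CPM in A and 2525 CPM in B, a log2 ratio of -0.20. Nop58, a core protein of the particles that methylate ribosomal RNA, had 465 CPM in A and 721 CPM in B, a log2 ratio of -0.72. All 32 genes of the list reached 1 CPM in both libraries. Corrected for GC content and length, the medians were 0.04 for mitochondrial ribosomal protein genes and 0.21 for elongation factor genes. They were -0.05 for initiation factor genes and -0.31 for the biogenesis list. The difference between the families was not tested.

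**Figure D5:**
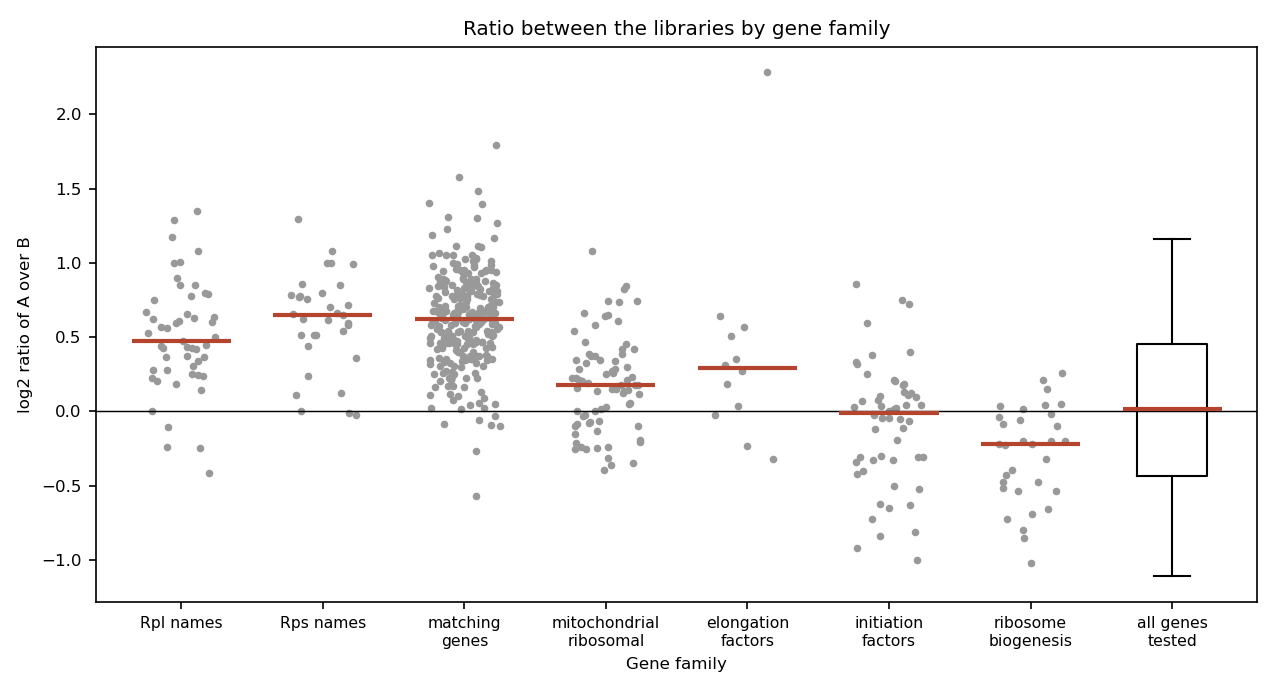
Log2 ratio of A over B of single genes (points) by family, with the median as a red line, and for all genes tested a box of the quartiles with whiskers at the percentiles 5 and 95. The medians are 0.48 for Rpl names, 0.65 for Rps names, 0.63 for their matching genes, 0.18 for mitochondrial ribosomal proteins, 0.29 for elongation factors, -0.01 for initiation factors, -0.22 for the biogenesis list and 0.01 for all genes. These ratios are not corrected for GC content or length.

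The name rule leaves out some genes whose products also sit in the ribosome. Rpsa, a small subunit protein, had 50261 counts in A and 29298 in B, or 930 RPKM in A and 498 RPKM in B. Rack1, the scaffold on the small subunit head, had 97217 counts in A and 64415 in B, or 2410 RPKM in A and 1468 RPKM in B. Rack1 was at the level of the high genes above, and Rpsa lay below them. Fau, which encodes a ribosomal protein fused to a ubiquitin-like sequence, was low, with 982 counts in A and 777 in B. These 3 genes were higher in A by the exact binomial test, with log2 ratios of 0.81 for Rpsa, 0.62 for Rack1 and 0.36 for Fau.

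The genes shared a compact structure. Their median transcript had 5 exons and 869 bases with a GC content of 51.6%, and 2 genes, Rpl36al and Rps27rt, had a single exon. They lay on 19 chromosomes, with 4 on the X. In 29 genes the introns or exons held 55 annotated small nucleolar RNA genes, which are cut out of the host transcript and guide ribosomal RNA modification, and Rpl4 held 5 of them. Exons of other genes covered 10% or more of the exon bases on the same strand for 8 genes, among them Rpl24, where 484 of 1030 bases overlap Gm28037. The counts of such genes are uncertain, and 16 genes had exons overlapping a gene on the opposite strand, for which the strand setting of the counting is not given in the sources used here.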

How the data were processed

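Polyadenylated RNA of both samples was sequenced from reverse-stranded TruSeq libraries, per the labels' protocols. The authors deposited raw integer counts for each Ensembl gene. The submitters' processing notes list the mm10 build, featureCounts 1.4.5-p1 and STAR 2.4.2a. Not given in the sources used here are the annotation release, the strand setting and how multi-mapping reads were handled.

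Names, lengths and sequences came from GENCODE M21 (GRCm38), which held 42462 of the 43629 identifiers. Members and lists were chosen with earlier results of these data known. Matching genes were found with blastn 2.17.0 against annotated transcripts. Uniqueness of 50-base stretches was computed over annotated transcripts of other genes on both strands, since no genome was used here. Poisson intervals are exact, at the 95% level, and cover counting error only.

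Each gene's counts in A and B were set against each other in an exact binomial test, with TMM factors of 1.03 for A and 0.968 for B (edgeR 4.0.16 in R 4.3.3) and Benjamini-Hochberg adjustment over the 14583 genes that reached 1 CPM in A or B. With 1 group, no model across samples could be fitted. The scripts were tested on simulated data. As alternatives, unscaled totals, size factors from DESeq2 1.42.0, other filters, pseudocounts of 0.1 and 1, other lengths, other stretch lengths, and other identity and coverage limits were tried. Each library was also used alone. Genes named in full were the 5 highest and 5 lowest of each subunit, the 8 with the highest share of counts at copies, the 5 largest ratios each way among genes with a mean of 5 CPM or more, and the paralogs with their partners. Other members were chosen after their values were seen. A few of the genes so chosen are not reported here.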

Additional observations from a re-analysis of the deposited data

How the results depend on the processing

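No paired analysis was possible because the series holds 1 group. Of the values recomputed under alternatives, 47 stayed within the replicate spread, the counting error of the ratio or 1.5 times the count, 22 moved, 2 counts became smaller and 1 changed sign. The 47 include values from 1 library alone. Those of levels and shares were judged against the spread between the same 2 libraries, so their staying within it was nearly fixed in advance and shows no stability. The median level, averaged over both libraries, was 157 RPKM for large and 422 RPKM for small subunit names. It was 87.4 and 158 with the length of all exons, 439 and 793 with unique 50-base stretches in place of length, and 579 and 942 with matching genes added. Chosen after seeing the data, the shortest principal transcript gave 201 and 592, and joint counts without paralogs, Rpl7l1 and Rps19bp1 gave 714 and 963. The small subunit median was above the large in each of these settings. The SD of log2 RPKM, 2.25, was 1.69 with matching genes and 1.35 also without those 8 genes. The rho of level with unique share, 0.26, was 0.33 with all exons, 0.34 with 75-base and 0.41 with 100-base stretches, and -0.011 with matching genes. The share of counts at copies, 42.7%, was 42.3% at 95% identity and 41.5% with pseudogene biotypes only. The median log2 ratio, 0.57, was 0.67 without scaling, 0.56 with DESeq2 size factors, 0.58 at a minimum of 10 CPM, 0.65 with matching genes and 0.29 with correction for GC content and length. The 41 genes at least 1.5-fold apart became 19 with that correction, 17 of them higher in A. The 3 genes higher in B became 1 with matching genes. The cause of these moves was not tested. With 2 libraries, the spread between samples is known only roughly.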
